A study of Danio rerio
Oryzias latipes and Oryzias latipes and Danio rerio with 7 samples.

Results

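Zebrafish transcripts were compared between embryos of medaka that carry transplanted zebrafish cells and whole zebrafish embryos. The comparison uses 5 of the 7 libraries of the series, read on the zebrafish genome only. The 3 chimera libraries came from whole embryos called zebraka, medaka (Cab strain) blastulae that had received blastomeres of age-matched zebrafish (AB strain) and were raised in ERM, a rearing medium for medaka. The 2 zebrafish libraries came from whole AB embryos raised in E3 medium. The 2 medaka libraries, from whole Cab embryos raised in ERM, served only to remove genes on which medaka reads land. All embryos were kept at 28 °C, and their stage is given only as embryo. Rearing medium and transplantation differ together here and cannot be told apart. No source states whether libraries within a group derive from different clutches, so p-values measure only the spread between these libraries, which may be technical.

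Blastomeres are the early cells of the embryo, and at the blastula stage most of them can still enter many tissues. A chimera library therefore reports, for each zebrafish gene, the sum over the zebrafish cells present at collection, while a whole zebrafish embryo sums over all of its tissues. Housekeeping pathways such as nucleotide synthesis, the tricarboxylic acid cycle or organelle acidification run in every cell but are needed in very different amounts by muscle, yolk, skin and neural tissue. In such bulk samples, fewer cells of a type and less RNA per cell cannot be told apart.

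Values are FPKM (fragments per length of transcript and per mapped fragments of the library), rescaled between libraries by the median ratio, and differences are on the scale of log2(FPKM + 1), chimeras minus zebrafish embryos. Of 32264 gene IDs, 16583 were tested because they averaged at least 1 FPKM in either group and under 1 FPKM in the medaka libraries. The deposited confidence limits imply 764000 to 941708 zebrafish-genome fragments in the chimeras, against 21866655 and 28574227 in the zebrafish libraries. Genes averaging 1 FPKM or more in the medaka libraries held 32.8% to 33.9% of these fragments in the chimeras. In zebrafish libraries 1 and 2 they held 26.1% and 20.4%. At equal FPKM a gene was covered by 33.8 times as many fragments in a zebrafish library. A call therefore needed an adjusted p under 0.05 (limma, Benjamini-Hochberg over all genes tested) and a gene deep enough to hold 3 fragments per chimera at the level of either group, which 14794 genes were. Among well-known tissue markers, taken here as context only, 93 of 162 cell cycle genes and 39 of 58 eye field and retina genes were called higher, and 8 and 7 lower. Photoreceptor and phototransduction genes were split, with 20 of 66 higher, 17 lower and 7 at 0 in all chimeras. Of 16 pigment genes, 12 were lower and none higher. Lower calls were made for 131 of 148 muscle genes, 112 of 133 skin genes, 118 of 151 yolk, liver, gut and kidney genes and 42 of 43 lens genes. The 148 muscle genes summed to 379 to 414 FPKM in the chimeras, against 9031 to 12372 FPKM in zebrafish embryos, and 71 of them were at 0 in all chimeras, among them mylpfb and pvalb4, picked out after their values were seen. The eye field and retina genes summed to 2353 to 2558 FPKM in the chimeras, against 640.3 to 674.9 FPKM in zebrafish embryos. How far these tissue differences account for the results below was not tested.

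Over all genes tested, 1716 (10.3%) were called higher in chimeras and 4833 (29.1%) lower, or 39.5% in either direction. The values of the 3 chimeras and the 2 zebrafish libraries did not overlap for 65.7% of genes. These shares are the background for the gene groups described below. At 2-fold or more on the scale of log2(FPKM + 1), 516 called genes were higher and 3913 lower. Folds given below for single genes are instead ratios of mean FPKM without the added 1, and so can be larger. In all 3 chimeras 2030 genes were at 0, 1497 of them with enough expected depth. The balance of directions depends on scaling: with quantile normalization 4967 genes (30.0%) were higher and 3152 (19.0%) lower, and the median difference over all genes moved by 0.53, to 0.30 against -0.23 as scaled here. Group medians below are therefore given relative to the median of all genes, first as scaled here and then after quantile normalization. Leaving out zebrafish replicate 1 gave 631 higher calls (3.78%) and 2783 lower calls (16.7%). Leaving out zebrafish replicate 2 gave 732 (4.45%) and 2841 (17.3%). Of the 16583 genes tested, 4321 passed the filter on low values through the zebrafish embryos alone and 566 through the chimeras alone, and such genes could hardly be called in the other direction. By level in zebrafish embryos, higher calls made up 5.67% of the 6788 genes at 1 to 5 FPKM and 16.8% of the 2704 genes at 20 to 100 FPKM. They made up 10.4% of the 566 genes under 1 FPKM, which are those that passed through the chimeras alone. The median difference also varied with level, at -0.47 for 1 to 5 FPKM and -0.09 for 20 to 100 FPKM. Group medians relative to all genes can therefore partly reflect the level of the members. The 81 gene lists used below matched 3158 entries, of which 2246 were tested, 463 of them through the zebrafish embryos alone.

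**Figure D1:**
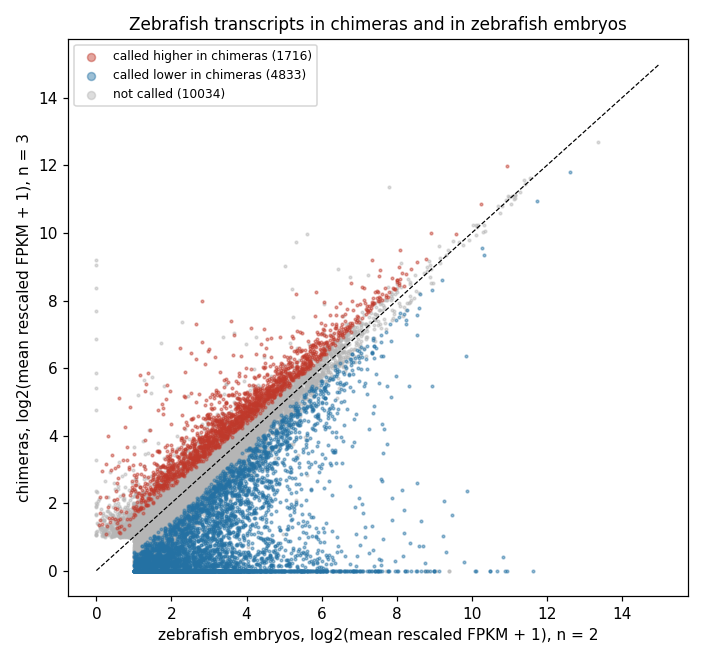
Mean level of each of 16583 genes in the 3 chimeras (vertical axis) and in the 2 zebrafish libraries (horizontal axis), both as log2(mean rescaled FPKM + 1). Points are genes coloured by call, the dashed line marks equal levels, and the row of points at 0 on the vertical axis is made of the 2030 genes with no value above 0 in any chimera.

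Outside the set of well-known tissue markers put aside here, the 15 largest increases were led by transcription factors, a retinoid carrier and a lipid enzyme. That set was not complete, so genes with known tissue roles remain among those named, such as foxn4 and, among the decreases, ngs. hes2.1 and hes2.2 encode repressors of the Hes family of basic helix-loop-helix proteins and lie close together on chromosome 8 (danRer10 chr8:46930867-46935793 and chr8:46905979-46907268). hes2.1 had 52.5, 40.2 and 40.6 FPKM in the chimeras, against 2.95 and 2.44 FPKM in the zebrafish embryos, a 16.5-fold higher mean (log2 difference 3.61, SE 0.17, limma adjusted p = 0.000101). hes2.2 had 72.2, 82.4 and 83.9 FPKM in the chimeras, against 9.33 and 6.63 FPKM in the zebrafish embryos (3.18, SE 0.17). The 3 chimeras lay close together for both genes and far above either zebrafish library. LHX3, a LIM homeobox factor known from motor neurons and pituitary, had 24.7, 33.5 and 30.0 FPKM in the chimeras, against 2.46 and 2.30 FPKM in the zebrafish embryos. foxn4, a forkhead factor needed in mouse for amacrine and horizontal cells, averaged 143 ± 19.9 FPKM in the chimeras and 16.3 ± 1.08 FPKM in the zebrafish embryos (SD, n = 3 and n = 2, as for all means here). It was the most abundant of these 15 genes in the chimeras.

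crabp1a, which binds retinoic acid in the cytoplasm, had 59.3, 74.4 and 41.0 FPKM in the chimeras, against 5.08 and 3.26 FPKM in the zebrafish embryos (log2 difference 3.50, SE 0.31). cyp1b1, a cytochrome P450 of retinoid and steroid metabolism, averaged 27.3 ± 2.17 FPKM in the chimeras and 2.42 ± 0.274 FPKM in the zebrafish embryos. rbpms2b, an RNA-binding protein, was 10.6-fold higher, at 101, 117 and 156 FPKM in the chimeras, against 11.5 and 11.9 FPKM in the zebrafish embryos. Surface proteins followed: the proteoglycan gene cspg5b was 12.5-fold higher, the Eph receptor gene ephb6 10.01-fold, the orphan receptor gene gpr37a 9.41-fold and the adhesion gene cadm3 7.25-fold. nhsl2, a relative of the cytoskeletal regulator NHS, was 8.31-fold higher. cdk6, a kinase of the G1 phase, was 5.81-fold higher, although the zebrafish libraries differed from each other, at 2.93 and 7.67 FPKM. pask, a PAS-domain kinase, was 7.97-fold higher, with only 11.8 implied fragments in the 3 chimeras together, a number that is too low for genes with several isoforms. These 15 genes kept their call in each of the 18 processing alternatives in which they were tested. ephb6 was not tested in 2 of them, where a stricter filter on medaka reads or the absence of medaka replicate 1 removed it.

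The 15 largest decreases were of genes that were abundant in zebrafish embryos and nearly or wholly undetected in the chimeras. ak1, an adenylate kinase that buffers ATP in muscle, lies at chr5:70925989-70948273, close to LHX3 at chr5:71028034-71046618. It was at 0 in all 3 chimeras, against 528 and 338 FPKM in the zebrafish embryos, a level at which each chimera would have held 510 fragments (adjusted p = 4.4e-05). cfl1l, an actin-severing cofilin, had 0.596, 0.749 and 0.671 FPKM in the chimeras, against 454 and 383 FPKM in the zebrafish embryos. gapdh, the glycolytic enzyme often used as a reference gene, had 3.44, 1.08 and 1.94 FPKM in the chimeras, against 837 and 596 FPKM in the zebrafish embryos, and it was called lower. gamt, which makes creatine, had 0.850, 2.14 and 2.30 FPKM in the chimeras, against 426 and 369 FPKM in the zebrafish embryos. For both genes the implied fragments number about 1 per chimera, so the chimera levels are imprecise. aep1, encoding an aerolysin-like protein, was at 0 in 2 of 3 chimeras and at 0.475 FPKM in the other, against 441 and 421 FPKM in the zebrafish embryos.

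Genes of actin dynamics, bone, fin and secreted proteins made up most of the rest of these decreases. TMSB15A, an actin-binding thymosin, averaged 1.16 ± 0.132 FPKM in the chimeras and 293 ± 37.5 FPKM in the zebrafish embryos. The gelsolin gene gsnb, the osteoclast phosphatase gene acp5a, the fin fold gene and3, the secreted phospholipase family gene pla2g12b and the amino acid transporter gene slc43a2b were at 0 in every chimera. Their means in zebrafish embryos were 122.7, 129, 96.8, 180.3 and 87.0 FPKM. egfl6, a secreted EGF-like protein, was at 0 in every chimera in both of its gene records, against 136 and 105 FPKM in the zebrafish embryos for the stronger record. ngs, a notochord protein, had a value above 0 in 1 chimera only, at 0.306 FPKM, against 122 and 117 FPKM. pmp22a, a myelin and epithelial membrane protein, had 0.668, 0 and 2.25 FPKM in the chimeras, against 155 and 127 FPKM in the zebrafish embryos. sepp1a, the secreted selenium carrier selenoprotein P, had 0.782, 4.74 and 0 FPKM in the chimeras, against 239 and 232 FPKM in the zebrafish embryos. Its adjusted p of 0.0019 became 0.067 without zebrafish replicate 1 and 0.062 without zebrafish replicate 2. The other 14 genes kept their call under each alternative.

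**Figure D2:**
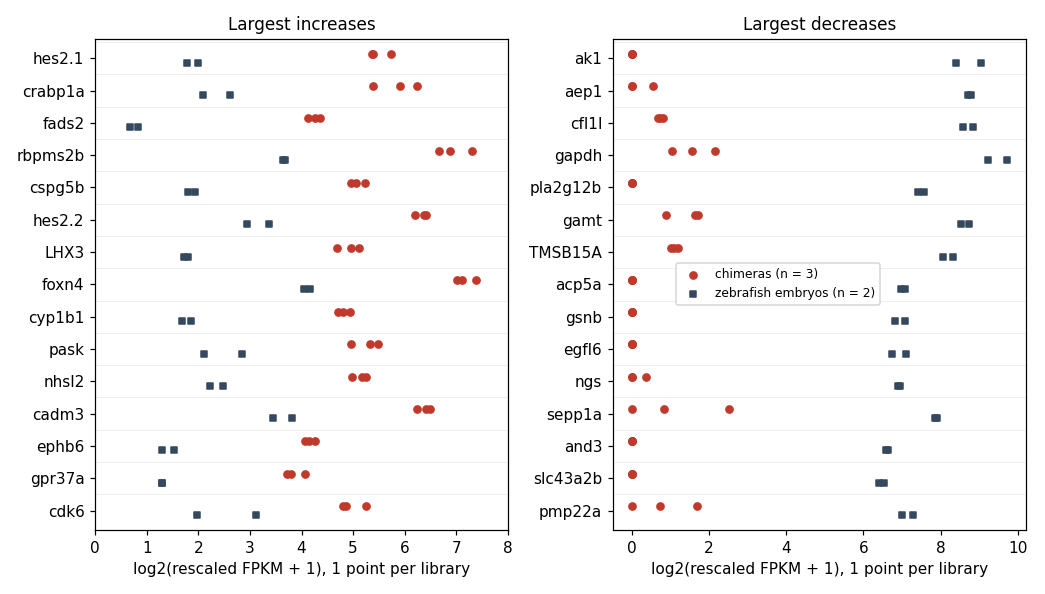
Level of the 15 genes with the largest increases (left) and the 15 with the largest decreases (right) in each library, as log2(rescaled FPKM + 1). Circles are the 3 chimeras and squares the 2 zebrafish libraries, and the groups do not overlap for any of these genes, which was a condition for naming them.

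Nucleotide synthesis showed different pictures on its purine and its pyrimidine side. Purine synthesis builds the ring on ribose phosphate, and in zebrafish it also feeds the guanine crystals of reflective pigment cells. Of 16 purine genes tested, 11 were called lower and 1 higher, against 29.1% and 10.3% of all genes, with a median of -0.86 relative to all genes (-1.21 after quantile normalization, again 11 lower and 2 higher). paics, which carries out consecutive middle steps, had 56.6, 58.2 and 44.4 FPKM in the chimeras, against 266 and 240 FPKM in the zebrafish embryos (log2 difference -2.24, SE 0.15, adjusted p = 0.00027). prps1a, which supplies the ribose phosphate, had 46.1, 39.7 and 45.1 FPKM in the chimeras, against 139 and 138 FPKM in the zebrafish embryos. adssl1, of the branch to AMP, was at 0 in 1 chimera and at most 0.174 FPKM in the others, against 23.4 and 25.1 FPKM. The exception was prps1b, the other copy of prps1a, with 28.2 ± 2.15 FPKM in the chimeras and 18.01 ± 1.19 FPKM in the zebrafish embryos (0.62, SE 0.11), and it lost its call without zebrafish replicate 1 (adjusted p = 0.054) or 2 (adjusted p = 0.074).

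Further steps of the purine route, picked out after their values were seen, were lower as well. gart was 4.14-fold lower, adsl 2.60-fold, pfas 2.18-fold and ppat, the entry enzyme, 2.17-fold. Without zebrafish replicate 1 or 2 their adjusted p-values were 0.068 to 0.19, pfas reached 0.054 without chimera replicate 2, and 5 of the 16 purine genes were lower with either zebrafish library left out. Pyrimidine synthesis had 3 of 14 genes higher and 1 lower, with a median of 0.46 above that of all genes (0.24 after quantile normalization, with 8 higher and 1 lower). The salvage kinase gene uck2b had 62.4, 57.0 and 56.2 FPKM in the chimeras, against 33.2 and 29.5 FPKM in the zebrafish embryos (0.88, SE 0.10, adjusted p = 0.0020). cad and dhodh, enzymes of the early steps, were 1.41-fold and 1.64-fold higher, and both lost their call without zebrafish replicate 1 (adjusted p = 0.21 and 0.20) or 2 (0.091 and 0.24) and without chimera replicate 1 (0.086 and 0.078). cad also lost it without chimera replicate 2 (0.071) and without the trend and robust options of limma (0.052), and dhodh with a pseudocount of 0.1 (0.053) or no filter on low values (0.052). uckl1b was the lower gene, at 0 in 2 chimeras and 0.265 FPKM in the other, against 3.94 and 3.14 FPKM in the zebrafish embryos.

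Fatty acid synthesis and elongation was split, with 7 of 25 genes called higher and 12 lower (7 and 7 after quantile normalization), and a median of -0.52 relative to all genes (-0.32). Without zebrafish replicate 1 or 2, 6 were higher and 8 lower. fads2, which places double bonds in polyunsaturated fatty acids and lies at chr25:4007596-4023060, had 18.2, 16.4 and 19.4 FPKM in the chimeras, against 0.770 and 0.601 FPKM in the zebrafish embryos. Its mean was 26.2-fold higher (log2 difference 3.49, SE 0.14, adjusted p = 9.2e-05), with 128 implied fragments over the chimeras. fads2 and scd, named below, were the 2 genes of this list that passed the filter on low values through the chimeras alone. Both could hardly be called lower. Another 7 passed through the zebrafish embryos alone. elovl2, which lengthens the same fatty acids, had 4.52, 4.95 and 5.09 FPKM in the chimeras, against 1.00 and 1.12 FPKM in the zebrafish embryos. acsl4a, which activates polyunsaturated fatty acids, averaged 64.3 ± 1.201 FPKM in the chimeras and 20.9 ± 0.109 FPKM in the zebrafish embryos. Of the remaining higher genes, looked at after their values were seen, srebf1, a regulator of lipid synthesis genes, was 4.53-fold higher, fasn 2.99-fold and scd 6.52-fold. scd lost its call without zebrafish replicate 1 (adjusted p = 0.20) or 2 (0.17).

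Of the 12 lower genes, elovl7a and elovl1a encode elongases of long-chain fatty acids. elovl7a was at 0 in 2 chimeras and 0.416 FPKM in the other, against 18.7 and 17.8 FPKM in the zebrafish embryos. elovl1a averaged 0.675 ± 0.205 FPKM in the chimeras and 8.02 ± 0.103 FPKM in the zebrafish embryos. In cholesterol synthesis 4 of 22 genes were higher and 2 lower, with a median of 0.51 above all genes (0.53 after quantile normalization, with 12 higher and 1 lower). hmgcra, a form of the rate-limiting reductase, had 4.89, 6.82 and 5.69 FPKM in the chimeras, against 1.06 and 1.07 FPKM in the zebrafish embryos (1.71, SE 0.18, adjusted p = 0.0014). fdps, which makes the farnesyl units, was 1.99-fold lower. The count of higher cholesterol genes was 1 without zebrafish replicate 1 and 1 without zebrafish replicate 2. Fatty acid breakdown had 12 of 25 genes lower and none higher (9 lower and 2 higher after quantile normalization). cpt1ab, the entry enzyme of the carnitine shuttle, had 0.946, 1.58 and 1.24 FPKM in the chimeras, against 13.4 and 12.3 FPKM in the zebrafish embryos. slc25a20, the carnitine carrier, was 4.03-fold lower. With either zebrafish library left out 6 breakdown genes were lower.

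Mitochondrial genes ranged from mostly uncalled to mostly lower. In the tricarboxylic acid cycle 14 of 25 genes were lower and none higher, the same counts as after quantile normalization, with a median of -0.41 relative to all genes (-0.80). The lower count was 7 without zebrafish replicate 1 and 12 without zebrafish replicate 2. pcxb, the pyruvate carboxylase that refills the cycle, was at 0 in all chimeras, against 25.8 and 33.9 FPKM in the zebrafish embryos. mdh1ab, a cytosolic malate dehydrogenase that is not itself an enzyme of the cycle, was 30.0-fold lower. suclg2, a succinyl-CoA ligase subunit, was 5.75-fold lower. Of the protein-making and importing machinery, 73 of 75 genes of the mitochondrial ribosome and all 27 of mitochondrial protein import were uncalled, with medians of 0.21 and 0.15 above all genes (-0.17 and -0.18 after quantile normalization, when 5 and 2 were called higher and none lower). mrpl51, of the large subunit, was 1.52-fold higher, a call lost without zebrafish replicate 1 (adjusted p = 0.14) or 2 (0.17) and without chimera replicate 1 (0.056). mrpl36, of the same subunit, was 1.66-fold lower, a call lost with quantile normalization (0.10) and without zebrafish replicate 1 (0.066). Among the import genes limma called 0 in either direction, with 1 higher and 0 lower at an unadjusted p under 0.05 and 0 with voom weights. tomm5, a small subunit of the outer import pore, had 90.3, 66.5 and 82.6 FPKM in the chimeras, against 103 and 86.2 FPKM in the zebrafish embryos, and the groups overlapped. The transcripts of the mitochondrial genome that passed the filter were 6, of which 4 were lower (2 after quantile normalization), and 0 with either zebrafish library left out. mt-atp6 averaged 1955 ± 283 FPKM in the chimeras and 3447 ± 313 FPKM in the zebrafish embryos, and lost its call without zebrafish replicate 1 (adjusted p = 0.14) or 2 (0.096). slc25a4, the main ADP/ATP carrier of muscle, averaged 1.12 ± 0.165 FPKM in the chimeras and 121 ± 40.9 FPKM in the zebrafish embryos. Peroxisome genes had 1 of 28 lower and none higher, with 12 higher and none lower after quantile normalization.

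Of 17 genes of creatine, glutamine and GABA metabolism, 10 were lower and none higher, with a median of -0.52 relative to all genes (-0.93 after quantile normalization, 7 lower and 1 higher). The lower count was 5 without zebrafish replicate 1 and 4 without zebrafish replicate 2. glula, a glutamine synthetase that is also typical of glia, had 8.71, 13.6 and 13.3 FPKM in the chimeras, against 112 and 110 FPKM in the zebrafish embryos (log2 difference -3.14, SE 0.21, adjusted p = 0.00029). glud1b, a glutamate dehydrogenase, averaged 18.8 ± 0.774 FPKM in the chimeras and 96.3 ± 11.5 FPKM in the zebrafish embryos. In the folate and one-carbon cycle 10 of 25 genes were lower and 1 higher (7 and 5 after quantile normalization), and the median lay -0.01 from that of all genes (-0.21). mat1a, the liver form of the enzyme that makes S-adenosylmethionine, had 0.459, 0.288 and 0.775 FPKM in the chimeras, against 91.4 and 88.9 FPKM in the zebrafish embryos, and ftcd, of histidine breakdown, was at 0 in all chimeras, against 17.5 and 16.9 FPKM. Among polyamine genes, which were not of synthesis alone, 3 of 11 were higher and 2 lower (4 and 2 after quantile normalization). Fewer were called with either zebrafish library left out. The higher genes were led by sat1b, the acetyltransferase that marks polyamines for export and is not an enzyme of their synthesis. sat1b had 17.1 ± 3.11 FPKM in the chimeras and 4.81 ± 0.634 FPKM in the zebrafish embryos (1.63, SE 0.19, limma adjusted p = 0.0021).

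Redox and degradative systems held many lower calls. Among 63 glutathione and thioredoxin enzymes 34 were lower and 5 higher, with a median of -0.55 relative to all genes (-0.86 after quantile normalization, 32 lower and 9 higher). hmox1a, which breaks down heme and is not itself a glutathione or thioredoxin enzyme, had 0.440, 0.553 and 0.495 FPKM in the chimeras, against 49.4 and 46.4 FPKM in the zebrafish embryos. txn, a thioredoxin, had 4.63, 4.36 and 5.20 FPKM in the chimeras, against 117 and 96.1 FPKM in the zebrafish embryos, and the related txnbb was at 0 in all chimeras. txnrd1, the reductase that recharges thioredoxin, was among the 5 higher genes, at 64.1 ± 0.757 FPKM in the chimeras and 47.7 ± 0.941 FPKM in the zebrafish embryos (0.42, SE 0.07, adjusted p = 0.0094). Without zebrafish replicate 1 or 2, 14 and 19 of these enzymes were lower and 2 higher.

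The vacuolar proton pump, which acidifies lysosomes and synaptic vesicles and drives ion uptake in skin, had 17 of 26 genes lower and none higher (17 lower and 2 higher after quantile normalization). Its median was -0.60 relative to all genes (-0.96), and 10 genes were lower with either zebrafish library left out. The accessory subunit gene atp6ap1b had 3.51, 4.03 and 3.28 FPKM in the chimeras, against 19.0 and 17.1 FPKM in the zebrafish embryos. atp6v1c1b, of the catalytic sector, was 3.29-fold lower. Among 31 lysosome genes 15 were lower and 1 higher (10 and 3 after quantile normalization, and 6 lower with either zebrafish library left out). npc2, which moves cholesterol out of lysosomes, had 8.47, 13.6 and 15.1 FPKM in the chimeras, against 227 and 200 FPKM in the zebrafish embryos. The higher gene was scarb2, a lysosomal membrane protein, at 73.8 ± 3.48 FPKM in the chimeras and 42.7 ± 4.21 FPKM in the zebrafish embryos. Of iron and copper genes 9 of 23 were lower and 1 higher (4 and 5 after quantile normalization, with 5 and 4 lower without zebrafish replicate 1 and 2), among them the iron exporter gene slc40a1, 4.11-fold lower, and the copper chaperone gene atox1, 2.68-fold lower.

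Several groups of RNA regulation had medians above that of all genes. The microRNA machinery, which loads small RNAs onto Argonaute proteins and silences their targets, had 5 of 19 genes higher and none lower, with a median of 0.74 above all genes (0.48 after quantile normalization, 8 higher and none lower). ago4, an Argonaute, had 60.7, 72.0 and 55.8 FPKM in the chimeras, against 19.6 and 22.8 FPKM in the zebrafish embryos (log2 difference 1.52, SE 0.15, adjusted p = 0.0011). tnrc6c1, a silencing partner of Argonaute, was 1.57-fold higher and lost its call without zebrafish replicate 1 (adjusted p = 0.060), when 1 gene of the machinery was called. In RNA and DNA modification 9 of 33 genes were higher and 3 lower (16 and none after quantile normalization), and 2 were higher without zebrafish replicate 1 and 6 without zebrafish replicate 2. Of these 33 genes, 2 passed the filter on low values through the chimeras alone and could hardly be called lower. dnmt1, the DNA methyltransferase that copies methylation after replication, averaged 80.1 ± 5.81 FPKM in the chimeras and 45.5 ± 2.82 FPKM in the zebrafish embryos. ythdf2, which reads methylated adenosine and helps clear maternal RNA in zebrafish, had 40.6, 40.2 and 37.3 FPKM in the chimeras, against 27.1 and 27.6 FPKM in the zebrafish embryos.

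Of 50 genes of mRNA turnover 9 were higher and 6 lower (27 and 6 after quantile normalization). The higher count was 3 without zebrafish replicate 1 and 4 without zebrafish replicate 2. btg1, which recruits deadenylases to stop proliferation, had 93.2, 89.0 and 87.2 FPKM in the chimeras, against 52.6 and 49.6 FPKM in the zebrafish embryos (0.80, SE 0.08, adjusted p = 0.0011). Its relative btg3 was 2.08-fold higher and lost its call without zebrafish replicate 1 (adjusted p = 0.065) or 2 (0.082). The lower genes included the poly(A)-binding protein genes pabpc4, at 0.365 ± 0.403 FPKM in the chimeras and 72.3 ± 17.4 FPKM in the zebrafish embryos, and pabpc1b, at 2.66 ± 0.957 FPKM in the chimeras and 35.5 ± 0.966 FPKM in the zebrafish embryos, and also tob1b, of the same family as btg1, 8.72-fold lower. Among 37 RNA-binding proteins of neurons and muscle 5 were higher and 13 lower (9 and 10 after quantile normalization), and with either zebrafish library left out 3 were higher and 6 lower. msi1, a marker of neural progenitors, had 210.5, 249 and 214 FPKM in the chimeras, against 84.9 and 80.5 FPKM in the zebrafish embryos, and celf2 was 3.20-fold higher. khdrbs1a, a splicing regulator, was the most abundant of the list, at 1843 ± 42.7 FPKM in the chimeras and 1210 ± 138 FPKM in the zebrafish embryos (0.61, SE 0.09, adjusted p = 0.0057). The splicing regulators of muscle rbfox1l and mbnl1 were at 0 in all chimeras, against means of 31.1 and 9.82 FPKM in the zebrafish embryos, and rbms1a was 7.42-fold lower.

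In ribosome biogenesis 6 of 56 genes were higher and none lower, close to the background share of 10.3% for higher calls and far from 29.1% for lower ones, and 15 were higher and none lower after quantile normalization. polr1e, a subunit of RNA polymerase I, had 26.9, 24.4 and 23.8 FPKM in the chimeras, against 17.7 and 15.1 FPKM in the zebrafish embryos, and its adjusted p was 0.016 with all libraries and 0.079 without zebrafish replicate 2. With either zebrafish library left out 1 gene of ribosome biogenesis was higher. Among 36 genes of aminoacyl-tRNA synthetases and their complex, 6 were higher and 2 lower (23 and 2 after quantile normalization, and 2 and 3 higher without zebrafish replicate 1 and 2). aars was 1.56-fold higher and yars 2.00-fold, the second losing its call without zebrafish replicate 1 (adjusted p = 0.065). Deubiquitinases had 9 of 58 higher and 8 lower (29 and 5 after quantile normalization, 3 and 4 without zebrafish replicate 1, 3 and 3 without replicate 2), led by usp54a at 46.6 ± 5.49 FPKM in the chimeras and 10.3 ± 2.27 FPKM in the zebrafish embryos, while usp28 was at 0 in all chimeras, against 4.85 and 4.04 FPKM.

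**Figure D3:**
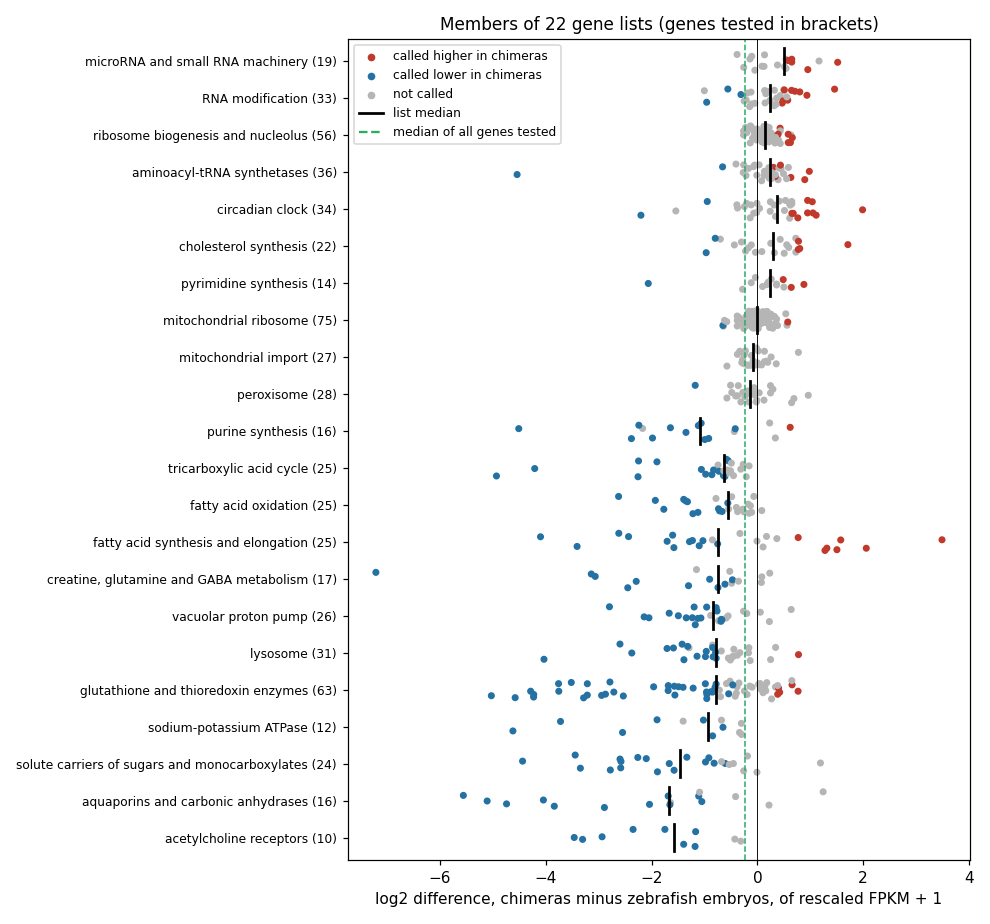
Log2 difference (chimeras minus zebrafish embryos) of every tested member of selected gene lists. Points are genes coloured by call, black bars are list medians, and the dashed green line is the median of all genes, -0.23. Members of the purine, proton pump, aquaporin and acetylcholine receptor lists lie mostly left of that line, and those of the microRNA and clock lists mostly right of it.

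Clock genes held many higher calls. The vertebrate clock is a loop in which Clock and Bmal proteins activate Per and Cry genes that repress them, and in zebrafish light sets it in most tissues. Of 34 genes 9 were higher (26.5%, against 10.3% of all genes) and 2 lower, with a median of 0.61 above all genes (0.55 after quantile normalization, 19 higher and 1 lower). Without zebrafish replicate 1 or 2, 4 were higher and 1 lower. Of the 34 genes, 3 passed the filter on low values through the chimeras alone and could hardly be called lower. None passed through the zebrafish embryos alone. nfil3-2 and nfil3-5 are relatives of the clock output repressor Nfil3. nfil3-2 had 41.5, 30.1 and 36.2 FPKM in the chimeras, against 8.24 and 8.22 FPKM in the zebrafish embryos (log2 difference 1.99, SE 0.16, adjusted p = 0.00055). nfil3-5 averaged 43.9 ± 1.06 FPKM in the chimeras and 20.9 ± 0.125 FPKM in the zebrafish embryos. cry1aa, a repressor of the core loop, was 1.67-fold higher. The lower genes were bhlhe40, a light-induced repressor, at 4.08, 4.11 and 2.98 FPKM in the chimeras against 21.6 and 19.7 FPKM in the zebrafish embryos, and hlfa, 2.46-fold lower. The call on hlfa was lost with quantile normalization (adjusted p = 0.30) and without zebrafish replicate 1 (0.076) or 2 (0.077). Of the other higher genes, picked out after their values were seen, per1b was 1.77-fold, cry1ba 2.02-fold and per2 2.21-fold higher, and cry1ba and per2 lost their calls without zebrafish replicate 1 (adjusted p = 0.11 and 0.10) or 2 (0.079 and 0.076). The time of day at which each group was collected is not given.

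Aquaporins and carbonic anhydrases, which move water and turn over carbonic acid, had 11 of 16 genes lower and none higher (9 lower and 2 higher after quantile normalization), with the median farthest below that of all genes among the 81 lists, at -1.44 (-1.38). Of these 16 genes, 9 passed the filter on low values through the zebrafish embryos alone. ca6 was at 0 in all chimeras, against 33.7 and 33.3 FPKM in the zebrafish embryos, and aqp12 likewise, against 15.6 and 15.5 FPKM. The sodium-potassium ATPase had 7 of 12 genes lower and none higher under both scalings, including the beta subunit gene atp1b1a, at 8.24, 11.6 and 10.4 FPKM in the chimeras and 66.1 and 60.5 FPKM in the zebrafish embryos, and fxyd1, a regulator of the pump, at 0 in all chimeras. Carriers of sugars and monocarboxylates had 17 of 24 lower and none higher, and 17 of the 24 passed the filter through the zebrafish embryos alone (11 and 2 after quantile normalization, and 7 lower with either zebrafish library left out), among them slc2a15a and slc16a12b, both at 0 in all chimeras, against means of 9.21 and 9.89 FPKM.

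Amino acid carriers had 18 of 36 genes lower and 3 higher (12 and 8 after quantile normalization), with 11 lower and 1 higher with either zebrafish library left out. slc7a5, the carrier of large neutral amino acids that supplies growing cells, was higher, at 17.3, 20.9 and 17.5 FPKM in the chimeras and 4.97 and 6.93 FPKM in the zebrafish embryos (1.504, SE 0.18, adjusted p = 0.0023). slc38a5a was at 0 in all chimeras, against 5.94 and 6.09 FPKM. Of the 36 amino acid carrier genes, 12 passed the filter on low values through the zebrafish embryos alone. Of the mitochondrial citrate carrier copies, slc25a1a was 1.78-fold higher and slc25a1b was at 0 in all chimeras, against 11.1 and 15.9 FPKM.

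Of 33 acetylcholine receptor genes only 10 were tested, 9 of which passed the filter through the zebrafish embryos alone, so that their direction was largely set by the filter. Lower calls were made for 8 of the 10 (5 after quantile normalization, and 3 and 5 without zebrafish replicate 1 and 2), including chrnd and chrnb1, subunits of the receptor at the nerve-muscle junction, both at 0 in all chimeras. Their zebrafish means were 8.99 and 4.13 FPKM. Calcium handling had 20 of 35 genes lower and 1 higher (9 and 6 after quantile normalization, and 8 lower with either zebrafish library left out). The higher gene was ncalda, a neuronal calcium sensor, with 144, 141 and 137 FPKM in the chimeras, against 67.2 and 63.1 FPKM in the zebrafish embryos (1.0997, SE 0.08, adjusted p = 0.00028). atp2a3, a calcium pump, averaged 0.0758 ± 0.0669 FPKM in the chimeras and 7.69 ± 0.937 FPKM in the zebrafish embryos. Of the 35 calcium handling genes, 14 passed the filter on low values through the zebrafish embryos alone. Among GABA and glycine receptors gabrb1 was 11.3-fold higher, at 2.83, 2.30 and 2.84 FPKM in the chimeras and 0.264 and 0.207 FPKM in the zebrafish embryos, whereas glra4a averaged 0.502 ± 0.366 FPKM in the chimeras and 10.9 ± 2.34 FPKM in the zebrafish embryos. gabrb1 passed the filter through the chimeras alone, and 7 of the 14 GABA and glycine receptor genes tested passed it through the zebrafish embryos alone. kcnj3a, a G protein-gated potassium channel, was 2.03-fold higher, and kcnj1a.2, a channel of ion-transporting epithelia, was at 0 in all chimeras, against 2.94 and 3.22 FPKM. Their list, inward rectifier and two-pore potassium channels, had 8 of 18 genes lower and 2 higher (4 and 6 after quantile normalization). Of these 18 genes, 11 passed the filter through the zebrafish embryos alone, kcnj1a.2 among them. Gap junction genes had 6 of 14 lower and 1 higher (5 and 2 after quantile normalization), and cx30.3 and cx23 were at 0 in all chimeras, against zebrafish means of 26.3 and 14.8 FPKM. Of these 14 genes, 8 passed the filter through the zebrafish embryos alone.

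Genes of the growing axon and the microtubule cytoskeleton had members called in both directions. Of 35 neurofilament and axon growth genes 4 were higher and 15 lower (9 and 10 after quantile normalization, and 6 lower with either zebrafish library left out). ncam1a, a neural adhesion molecule, had 88.4, 109 and 95.2 FPKM in the chimeras, against 32.1 and 38.99 FPKM in the zebrafish embryos (1.43, SE 0.14, adjusted p = 0.0011), and marcksa, an actin regulator of growth cones, was 2.29-fold higher. The neurofilament genes nefma and nefmb, typical of mature long axons, averaged 0.344 ± 0.145 and 0.456 ± 0.348 FPKM in the chimeras, against 8.98 ± 0.812 and 21.2 ± 3.23 FPKM in the zebrafish embryos, and sncga, a synuclein, had 1.17, 1.22 and 2.64 FPKM in the chimeras, against 75.7 and 62.1 FPKM in the zebrafish embryos. Of the 35 genes, 6 passed the filter on low values through the zebrafish embryos alone, nefma and nefmb among them. Of 8 tubulins 2 were higher and 4 lower (4 and 3 after quantile normalization, 1 and 2 with either zebrafish library left out). tuba1a, the tubulin of young neurons, averaged 511 ± 40.8 FPKM in the chimeras and 266 ± 34.8 FPKM in the zebrafish embryos, while tubb1 was at 0 in all chimeras and tubb6 averaged 0.959 ± 0.162 FPKM in the chimeras and 7.37 ± 1.94 FPKM in the zebrafish embryos. tubb1 and tubb6 were among 3 of the 8 tubulins that passed the filter through the zebrafish embryos alone, which largely set their direction. dclk2a, a doublecortin-like kinase, was 3.10-fold higher and stmn3, a stathmin, 5.29-fold lower. Their list of stathmins and doublecortins had 3 of 10 genes higher and 2 lower (5 and 2 after quantile normalization), and 1 of the 10 passed the filter through the zebrafish embryos alone.

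Rab GTPases and their partners, which direct vesicle traffic, had 28 of 75 genes lower and 5 higher (19 and 15 after quantile normalization). rab11fip4a, an effector of Rab11, had 35.0, 37.9 and 33.1 FPKM in the chimeras, against 7.70 and 9.94 FPKM in the zebrafish embryos (1.89, SE 0.14, adjusted p = 0.00044), and rab34a, needed for cilium formation in mouse, was 2.09-fold higher. The epithelial genes rab25a and rab11al were at 0 in all chimeras, against zebrafish means of 10.1 and 10.8 FPKM. Both were among 18 of the 75 genes that passed the filter on low values through the zebrafish embryos alone, which largely set their direction. Without zebrafish replicate 1 there were 10 lower and 3 higher calls, and without zebrafish replicate 2 there were 11 and 4.

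Genes of the IGF pathway were called in both directions. igf2a, a growth factor, and igfbp2a, a binding protein, each had a value above 0 in 1 chimera only, at 0.290 and 0.346 FPKM, against zebrafish means of 10.2 and 24.002 FPKM. igf1ra, a receptor, had 12.7, 16.4 and 14.4 FPKM in the chimeras, against 3.11 and 5.45 FPKM in the zebrafish embryos (1.58, SE 0.24, adjusted p = 0.0059), and akt3b, a kinase downstream, was 2.42-fold higher and lost its call without zebrafish replicate 1 (adjusted p = 0.071). In the whole list 7 of 33 genes were higher and 8 lower (13 and 5 after quantile normalization, with 2 higher and 6 lower without zebrafish replicate 1, and 3 and 5 without replicate 2). These are 21.2% and 24.2%, against 10.3% and 29.1% of all genes. Of the 33 genes, 6 passed the filter on low values through the zebrafish embryos alone, igf2a and igfbp2a among them, which largely set their direction. Through the chimeras alone 1 passed. Hypoxia response genes had 13 of 30 lower and none higher (9 and 3 after quantile normalization, and 5 lower with either zebrafish library left out). epas1a, a hypoxia-inducible factor, was at 0 in all chimeras, against 26.9 and 30.7 FPKM, and hif1al2 likewise, against 3.39 and 3.51 FPKM. Of the 30 hypoxia genes, 9 passed the filter on low values through the zebrafish embryos alone.

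Of 45 nuclear receptors 9 were higher and 12 lower (18 and 8 after quantile normalization, and 4 and 5 with either zebrafish library left out). The share of lower calls, 26.7%, was near the 29.1% of all genes, and that of higher calls was 20%, against 10.3%. nr2e1, which maintains neural stem cells in mouse, had 32.6, 38.6 and 37.2 FPKM in the chimeras, against 10.96 and 10.2 FPKM in the zebrafish embryos (1.68, SE 0.12, adjusted p = 0.00032), and rxrga, a retinoid X receptor, was 3.09-fold higher on 8.17 implied fragments in all. pparaa, a regulator of fatty acid breakdown, was at 0 in all chimeras, against 2.27 and 2.77 FPKM, and nr0b2a, an inhibitory receptor of liver, had 0.557, 0.233 and 0.209 FPKM in the chimeras, against 10.9 and 10.4 FPKM in the zebrafish embryos. Of the 45 nuclear receptors, 9 passed the filter on low values through the zebrafish embryos alone, pparaa and nr0b2a among them. In retinol and thyroid hormone handling 10 of 20 genes were lower and 2 higher (10 and 4 after quantile normalization), and 9 of the 20 passed the filter on low values through the zebrafish embryos alone. lrata, which esterifies retinol, and rbp7b, which binds it, were at 0 in all chimeras, against zebrafish means of 7.87 and 5.65 FPKM. Among cell surface genes, the receptor phosphatase genes ptprua and ptprz1a were 4.54-fold and 1.74-fold higher, and ptprna, of secretory granules, was 2.87-fold lower. In all, 2 of 21 receptor phosphatase genes were higher and 4 lower (11 and 1 after quantile normalization). The heparan sulfate carriers sdc2 and sdc4 were 4.89-fold and 3.09-fold lower. Of 29 neuropeptide and hormone genes 9 were lower and 1 higher (7 and 2 after quantile normalization), and 3 and 4 were lower without zebrafish replicate 1 and 2. The higher one was pyya, peptide YY, at 37.4, 34.9 and 26.9 FPKM in the chimeras, against 9.57 and 9.06 FPKM in the zebrafish embryos, whereas grp and pnoca were at 0 in all chimeras. The share of lower calls among these 29 genes, 31.0%, was close to the 29.1% of all genes. Through the zebrafish embryos alone 18 of them passed the filter on low values, which largely set their direction.

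Zebrafish keep many genes as pairs of copies from a genome duplication in teleost ancestors, named with the endings a and b. Pairs were formed here by symbol alone, after the values had been seen, so they also hold related genes or subunits that are not such copies, for example sdha and sdhb. Both members were tested for 1392 pairs of symbols that differ only in a final a or b. Of these, 322 (23.1%) had both members lower, 42 both higher, 524 only 1 member called and 459 none. Members called in opposite directions made up 45 pairs (3.23%), few beside the 10.3% higher and 29.1% lower calls of single genes. Pairs of unrelated genes were not counted for comparison, so no excess of opposite calls is shown. The pairs described below were picked out after their values were seen. Other pairs with wide splits are left out, among them ndrg1, the widest, epb41 and cxcr4. crabp1a, described above, averaged 58.2 ± 16.7 FPKM in the chimeras and 4.17 ± 1.29 FPKM in the zebrafish embryos. Its copy crabp1b was at 0 in all chimeras and averaged 28.1 ± 3.10 FPKM in the zebrafish embryos. In FPKM, crabp1a made up all of the pair in the chimeras and 12.9% of it in the zebrafish embryos. mid1ip1a, of a pair that regulates fat synthesis, was at 0 in all chimeras and averaged 44.9 ± 9.33 FPKM in the zebrafish embryos. mid1ip1b had 27.8, 24.3 and 30.1 FPKM in the chimeras, against 12.8 and 12.2 FPKM in the zebrafish embryos. akr1a1a, an aldehyde reductase, was at 0 in all chimeras, against a mean of 14.2 FPKM in the zebrafish embryos, and akr1a1b was 1.79-fold higher, a call lost without zebrafish replicate 2 (adjusted p = 0.075). crabp1b, mid1ip1a and akr1a1a passed the filter on low values through the zebrafish embryos alone, which largely set their direction.

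The copies of the nucleoside transporter genes slc29a1a and slc29a1b also parted: the a copy was 1.68-fold higher, and the b copy was at 0 in all chimeras, against a mean of 5.35 FPKM in the zebrafish embryos. The b copy, too, passed the filter on low values through the zebrafish embryos alone. igsf9b, an adhesion molecule, was 2.68-fold higher and igsf9a 3.95-fold lower. Of the proto-oncogene copies, myca stood at 52.8 ± 4.13 FPKM in the chimeras and 18.8 ± 0.877 FPKM in the zebrafish embryos, and mycb at 7.61 ± 0.726 FPKM in the chimeras and 17.5 ± 2.69 FPKM in the zebrafish embryos. Copies that are still alike in sequence can share reads, so levels of a pair may be partly mixed.

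**Figure D4:**
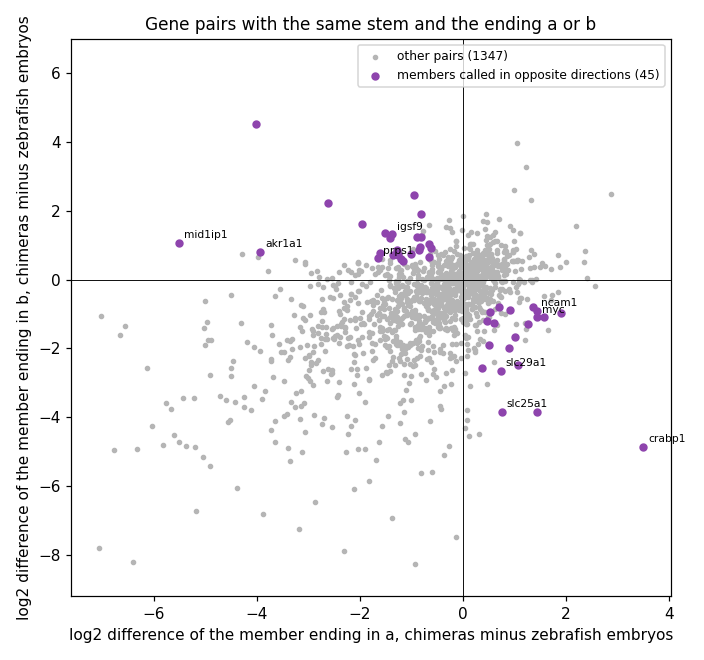
Log2 difference (chimeras minus zebrafish embryos) of the member ending in a (horizontal axis) and the member ending in b (vertical axis) of 1392 pairs of gene symbols. Purple points are the 45 pairs whose members were called in opposite directions and grey points all others. The 9 pairs that carry their stem have at least 1 member described in the text.

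Calls were spread over the genome. Over the 25 chromosomes, 6.23% to 12.7% of tested genes were called higher and 19.0% to 33.5% lower. Chromosome 4 was lowest on both counts, with 52 of 835 genes higher and 159 lower and a median difference of 0.02.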

How the data were processed

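RNA of whole embryos was extracted with Trizol and sequenced, per the labels' protocols. The authors deposited FPKM per gene with confidence limits, made with HISAT2 (version not given in the sources used here) and Cufflinks 2.2.1 on danRer10, per the submitters' processing notes. Only the tables on the zebrafish genome were used. Genes were matched by ID, values of 119 IDs at several loci were summed, and 54 IDs without a valid status were left out. Symbols come from the files. Cufflinks estimates isoform abundances, so near-identical copies and overlapping genes are uncertain, and FPKM within a library are relative to its total.

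FPKM were rescaled by the median ratio over 13544 genes. Fragments were inferred from the confidence limits and are too low for genes with several isoforms, and limits derived from them cover counting error only. log2(rescaled FPKM + 1) was fitted with limma 3.58.1 in R 4.3.3 (trend and robust options, no covariates, 3 chimera against 2 zebrafish libraries). The pseudocount of 1 understates changes of low genes. Tables were handled with Python 3.11.15, pandas 2.3.3, numpy 2.4.6 and scipy 1.17.1, and drawn with matplotlib 3.10.9. The fit was tested on simulated data. A count test was not used, since no counts were at hand.

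Gene groups came from 81 lists by symbol or family pattern, without known markers, and are described by counts and medians with no list test. Members and lists were chosen with earlier results of these data known, and some patterns were corrected after values had been seen. Genes named are, outside known markers and clone names, the 15 largest increases and 15 largest decreases among called genes with at least 10 FPKM in the higher group and no overlap, and up to 3 called members per list and direction by p-value, or up to 2 uncalled of highest level where a list had no call; others are marked as chosen later. The alternatives were pseudocounts of 0.1 and 5, other filters and scalings, voom weights, plain limma and leaving out each library.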

Additional observations from a re-analysis of the deposited data

How the results depend on the processing

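The counts of called genes were sensitive to scaling and to the zebrafish libraries. With quantile normalization 4967 genes were higher and 3152 lower, and the median difference over all genes changed sign, to 0.30. All 1716 higher genes were also called with quantile normalization, as were 3147 of the 4833 lower ones. With a mean of at least 5 FPKM required, 2894 genes were lower. Leaving out 1 library at a time gave 631 to 1776 higher and 2783 to 4946 lower genes, with the lowest higher counts without zebrafish replicate 1 (631) and 2 (732) and lower counts of 2783 and 2841. There a lone zebrafish library is assumed to vary like the chimeras. Genes at 0 in all chimeras then have no spread left, so they could hardly lose their call. The cause was not tested, except that the 5 FPKM setting tests fewer genes and the last settings use fewer samples. Over 172 named genes and 18 alternatives, 3021 of 3067 values kept direction and call, 46 lost the call and 0 turned round, and 22 of these genes were not tested in some alternatives (29 values in all). Most named genes were chosen for large changes or small p-values in these same data, so keeping the call was largely built in. Where no gene of a described list was called higher by limma, at most 1 was higher at an unadjusted p under 0.05 and at most 1 with voom weights. No paired analysis was possible because the labels give no replicate numbers, and those used here follow the order of the libraries in the series. Chimera replicates 2 and 3 were registered in a later block than all other libraries, and whether a batch goes with this is not given. At 1 to 5 FPKM in zebrafish embryos the median gene held 6.06 fragments over the 3 chimeras, so single values there are imprecise.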
